A study of Mus musculus with 3 samples.

Results

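Homeodomain transcription factors grouped under the name pan-sensory were followed in dorsal root ganglion (DRG) cells sorted from mouse embryos at 12.5 days post coitum. They were the POU factors Pou4f1, Pou4f2 and Pou4f3, the LIM factors Isl1 and Isl2, and Tlx2, Tlx3, Drgx and Hmx1. These 9 genes, taken by their Ensembl identifiers from 41388 in the deposited tables, were chosen by name, with earlier results of these data known. Drgx carries the older symbol Prrxl1 in the symbol table used. The C57BL/6 embryos of both sexes carried an EGFP reporter of Ret, the signalling receptor for GDNF family ligands. The sample labels call the allele Tg(Ret-EGFP)SJ/ and the series text a heterozygous EGFP knock-in at Ret, a difference that the sources used here do not settle. Cells were sorted from pooled ganglia of lower thoracic to upper sacral segments. Library B came from 340 ganglia of 17 embryos, library C from 300 ganglia of 15 embryos and library D from 60 ganglia of 3 embryos. All 3 pools belong to one group. No other condition and no EGFP-negative cells were analysed here, so the values describe the sorted pools. In bulk RNA of this kind, fewer cells that express a gene and less of its RNA per cell cannot be told apart.

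Homeodomain proteins bind DNA through a compact helical domain, and several of them acting together give a neuron its class. In sensory ganglia Pou4f1 (also called Brn3a) and Isl1 come on in almost every neuron as it leaves the cell cycle. Together they are known to end the early neurogenic programme and to open genes of sensory subtypes. Tlx3 and Drgx are known for their role in somatosensory, mainly nociceptive, circuits of the ganglion and the dorsal spinal cord. Hmx1 acts in cranial sensory and sympathetic ganglia.

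The homeobox, the coding stretch for the homeodomain, shows how the factors fall into families, and it is printed for 7 of the 9 genes because close copies bear on how reads can be assigned. Each line is the coding strand, 5′ to 3′, of 180 bases from a GENCODE M21 transcript (GRCm38). The 12 bases in capitals are the codons of the conserved tryptophan, phenylalanine and asparagine stretch in the third, DNA-contacting helix.
Pou4f1: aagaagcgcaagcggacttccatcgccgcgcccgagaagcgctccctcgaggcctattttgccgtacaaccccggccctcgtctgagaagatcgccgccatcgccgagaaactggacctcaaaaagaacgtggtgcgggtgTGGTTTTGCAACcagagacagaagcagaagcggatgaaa
Pou4f2: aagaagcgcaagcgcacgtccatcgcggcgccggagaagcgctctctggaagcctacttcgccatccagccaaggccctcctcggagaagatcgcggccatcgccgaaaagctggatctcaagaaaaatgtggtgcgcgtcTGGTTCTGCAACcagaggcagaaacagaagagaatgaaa
Isl1: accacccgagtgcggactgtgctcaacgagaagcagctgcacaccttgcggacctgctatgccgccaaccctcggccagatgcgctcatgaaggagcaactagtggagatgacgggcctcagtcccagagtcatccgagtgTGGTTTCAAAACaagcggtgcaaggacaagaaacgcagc
Isl2: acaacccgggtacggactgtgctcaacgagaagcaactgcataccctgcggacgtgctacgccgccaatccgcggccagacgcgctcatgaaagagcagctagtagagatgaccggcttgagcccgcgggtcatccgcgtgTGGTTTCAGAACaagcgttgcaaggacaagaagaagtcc
Tlx2: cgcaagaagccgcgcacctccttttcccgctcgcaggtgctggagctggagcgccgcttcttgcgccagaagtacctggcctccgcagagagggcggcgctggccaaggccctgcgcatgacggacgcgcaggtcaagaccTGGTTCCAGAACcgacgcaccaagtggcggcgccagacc
Tlx3: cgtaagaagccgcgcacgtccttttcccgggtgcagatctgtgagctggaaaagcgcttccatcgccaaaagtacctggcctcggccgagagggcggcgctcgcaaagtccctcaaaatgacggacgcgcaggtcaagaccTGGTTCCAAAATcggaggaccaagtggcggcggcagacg
Drgx: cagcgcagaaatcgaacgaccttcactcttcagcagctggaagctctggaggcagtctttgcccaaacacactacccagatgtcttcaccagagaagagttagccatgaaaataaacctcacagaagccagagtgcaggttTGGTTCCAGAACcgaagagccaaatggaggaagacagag

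The homeobox of Pou4f1 lies at chr14:104465747-104465926 and that of Pou4f2 at chr8:78434755-78434934, both on the minus strand. Those of Isl1 (chr13:116303091-116303270, minus strand) and Isl2 (chr9:55544135-55544314, plus strand) are likewise within a single exon. An intron of 79 bases splits the homeobox of Tlx2 (chr6:83068965-83069223, minus strand), one of 939 bases that of Tlx3 (chr11:33201480-33202598, minus strand) and 3980 intron bases interrupt that of Drgx (chr14:32603958-32608117, plus strand). Across the 5 pairs within a family, 81.1 to 85.0% of homeobox bases were identical. Across the 31 pairs between families the range was 34.4 to 66.7%. Pou4f1 and Pou4f2 transcripts share an unbroken run of 71 bases, Pou4f1 and Pou4f3 one of 41 and Pou4f2 and Pou4f3 one of 35. Tlx2 and Tlx3 share one of 32 and Isl1 and Isl2 one of 23. The read length is not given in the sources used here, so it is uncertain how reads inside such runs were assigned. The exons of none of the 9 genes overlap an exon of another gene in the deposited coordinates.

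All 9 factors were found at 1 TPM or more in every library. TPM here means counts divided by gene length and scaled to the same sum in each library. Over all 41388 genes that share was 28.7%. Isl1 and Pou4f1 together held 78.6% of the summed TPM of the 9 factors in B, 65.8% in C and 86.3% in D. Pou4f3, Isl2 and Drgx formed a middle group, and Tlx3, Hmx1, Tlx2 and Pou4f2 stood lowest.

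**Figure D1:**
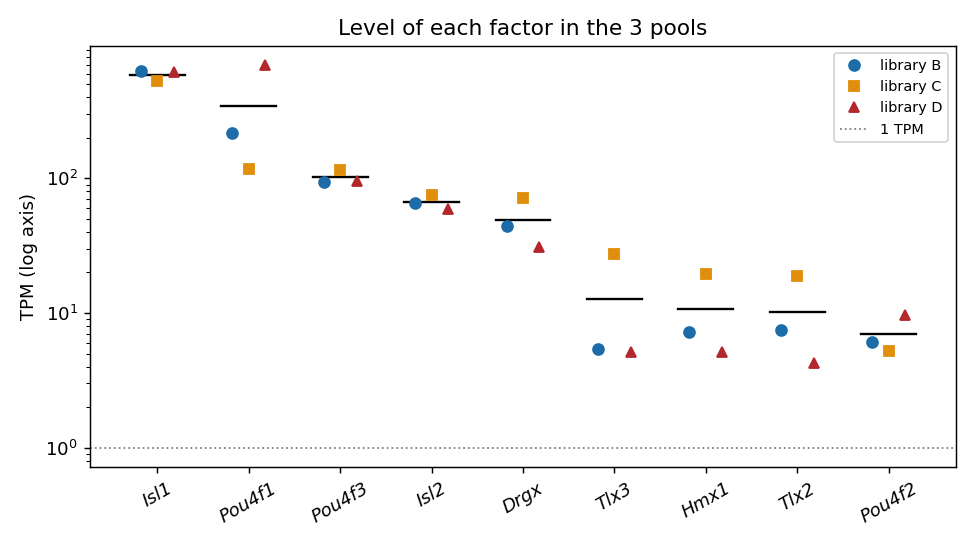
TPM of each of the 9 factors (log axis) in libraries B, C and D, ordered by mean. Points are single libraries, black lines the mean of the 3, and the dotted line marks 1 TPM. Isl1 lies between 526 and 628 TPM, whereas Pou4f1 runs from 118 TPM in C to 695 TPM in D.

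The POU4 factors were led by Pou4f1 (ENSMUSG00000048349, chromosome 14, 104461676 to 104467999, minus strand). It was measured at 217 TPM in pool B, 118 in pool C and 695 in pool D, from 9161, 3305 and 25025 counts. Library D stood far above the other two, and the mean of 343 ± 308 TPM (SD, n = 3) rests on it. Pou4f3 (ENSMUSG00000024497, chromosome 18, 42394539 to 42397249), best known as a hair cell factor and also present in somatosensory neurons, stood at 93.9 TPM in pool B, 116 in pool C and 95.6 in pool D. Its mean was 102 ± 12.4 TPM. The libraries lay close together in TPM, but with TMM scaling, which matches most genes between libraries, D stood at a log2 ratio of -0.63 to B and -1.03 to C. Pou4f2 (ENSMUSG00000031688, chromosome 8, 78433010 to 78436645), the retinal ganglion cell factor of the family, stood at 6.09 TPM in pool B, 5.26 in pool C and 9.68 in pool D. D was highest in TPM, but with TMM scaling it stood at a log2 ratio of 0.008 to B and 0.13 to C.

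Pou4f1 and Pou4f3 did not keep a fixed proportion. Of the TPM of the 3 POU4 genes, Pou4f1 made up 68.5% in pool B, 49.3% in pool C and 86.8% in pool D, and Pou4f3 29.6%, 48.5% and 11.9%. In C both genes were thus nearly level, at a log2 ratio of 0.02, while in D Pou4f1 exceeded Pou4f3 by 2.86 on the log2 scale. The mean ratio over libraries was 1.36 ± 1.42 (SD, n = 3), and 0.62 without D, so Pou4f1 did not exceed Pou4f3 beyond the spread between pools. Pou4f1 exceeded Pou4f2 in 3 of 3 libraries, by 5.25 ± 0.85. Pou4f2 had 1.92% as many counts as Pou4f1 in pool B, 3.06% in pool C and 0.955% in pool D. Reads shared with Pou4f1 or Pou4f3 could add to values this small, and their part was not tested.

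The LIM factors differed little between pools in TPM. Isl1 (ENSMUSG00000042258, chromosome 13, 116298281 to 116309689, minus strand), which acts with Pou4f1 in sensory neurons and is also needed in motor and sympathetic neurons, stood at 628 TPM in pool B, 526 in pool C and 620 in pool D. Its coefficient of variation in TPM was 9.62%, against 89.8% for Pou4f1. Its level lay at percentile 98.7 to 98.9 of the 23553 genes with a count. Isl2 (ENSMUSG00000032318, chromosome 9, 55538672 to 55546180) stood at 65.5 TPM in pool B, 75.2 in pool C and 58.8 in pool D, with a coefficient of variation of 12.4%. With TMM scaling the log2 ratio of D to C was -0.51 for Isl1 and -1.10 for Isl2, where the median gene had 0.03. Isl1 lay above Isl2 in each of the 3 pools, with a mean log2 ratio of 3.15 ± 0.31, and made up 89.8 ± 2.04% of their summed TPM.

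The order of the 2 leading factors changed between pools. Isl1 exceeded Pou4f1 by a log2 ratio of 1.53 in B and 2.15 in C, and in D Pou4f1 was slightly higher, at -0.16. The mean of 1.17 ± 1.20 was 1.84 without D and 0.68 without C, so these neighbours did not differ beyond the spread. Isl2 lay below Pou4f1 in 3 of 3 libraries, by -1.73 in pool B, -0.65 in pool C and -3.56 in pool D. The mean of -1.98 ± 1.47 became -1.19 without D. Isl2 and Pou4f3, next to each other in the order, kept nearly the same distance in each pool: Pou4f3 was higher by 0.52 in B, 0.63 in C and 0.70 in D.

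**Figure D2:**
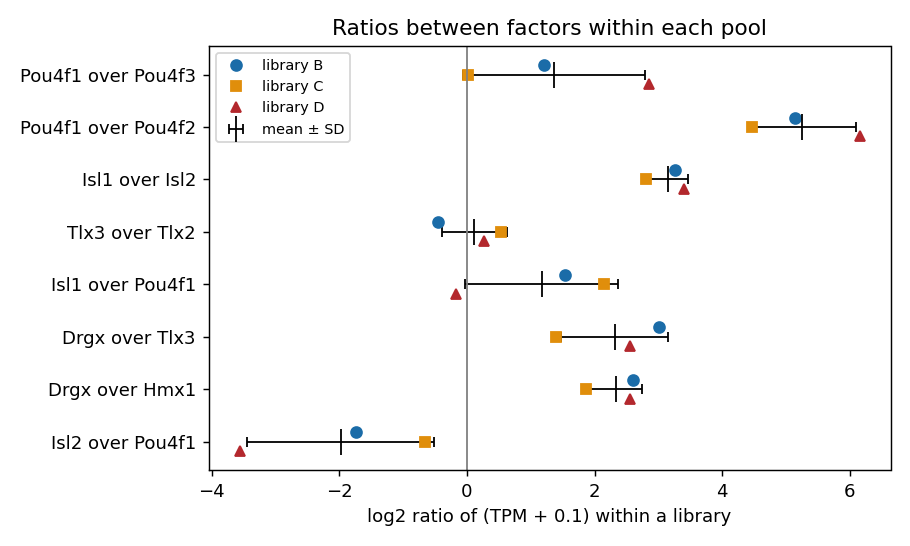
Log2 ratio of (TPM + 0.1) within a library for 8 pairs of factors, with points for libraries B, C and D and the mean ± SD in black. Isl1 over Isl2 spans 2.80 to 3.40, whereas Pou4f1 over Pou4f3 spans 0.02 to 2.86.

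Drgx (ENSMUSG00000041730, chromosome 14, 32599407 to 32649246), a paired-type factor of nociceptive circuits, stood at 44.6 TPM in pool B, 72.0 in pool C and 30.7 in pool D. The C pool was highest and the D pool lowest, with a mean of 49.1 TPM and a coefficient of variation of 42.8%. Drgx was next to Isl2 in the order, and their distance of 0.52 ± 0.44 shrank to 0.06 in C.

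The last 3 factors had a common profile, with C far above the other pools. Tlx3 (ENSMUSG00000040610, chromosome 11, 33200752 to 33203589, minus strand), a glutamatergic selector gene of the dorsal horn that is also needed for nociceptor subtypes, stood at 5.42 TPM in pool B, 27.4 in pool C and 5.16 in pool D. Hmx1 (ENSMUSG00000067438, chromosome 5, 35389108 to 35399730) stood at 7.25 TPM in pool B, 19.6 in pool C and 5.16 in pool D. Tlx2 (ENSMUSG00000068327, chromosome 6, 83068324 to 83070225, minus strand), known from enteric neurons, stood at 7.47 TPM in pool B, 18.9 in pool C and 4.28 in pool D. In TPM, B and D lay nearer to each other than to C in each of the 3 genes, and the mean over libraries rests on C. With TMM scaling Tlx2 in B lay midway, at a log2 ratio of -1.41 for D to B and for B to C.

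Within libraries these low factors could not be ranked. The log2 ratio of Tlx3 over Tlx2 was -0.45 in pool B, 0.53 in pool C and 0.26 in pool D. Its mean of 0.11 ± 0.51 turned to -0.10 without C. Hmx1 and Tlx2 differed by 0.09 ± 0.16, and Tlx2 and Pou4f2 by 0.32 ± 1.49, so the order of the lowest 4 did not hold beyond the spread. Drgx lay above them. It exceeded Tlx3 by 2.32 ± 0.84 and Hmx1 by 2.34 ± 0.41, in 3 of 3 libraries each. Of the 8 ratios tested by an exact two-sided sign-flip permutation test, the 6 with the same sign in every library gave p = 0.25, the smallest that 3 libraries allow, and 0.333 after Benjamini-Hochberg adjustment over the 8. No ratio between 2 factors can therefore pass 0.05 in this design.

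The spread between pools was also estimated for each gene from the counts. The common biological coefficient of variation over 13182 genes was 0.512 (edgeR, 3 libraries as a single group). Isl1 stood at 0.458 and Pou4f2 at 0.470, at percentiles 13.7 and 26.4 of all genes. Pou4f3 and Isl2 followed with 0.477 and 0.483, at percentiles 35.3 and 42.6. Pou4f1 stood at 0.527 and Drgx at 0.539, at percentiles 73.8 and 78.7. Hmx1, Tlx2 and Tlx3 were the most variable, with 0.621, 0.636 and 0.693, at percentiles 94.1, 95.2 and 97.7. These gene-wise values borrow strongly across genes, because only 3 libraries were available.

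Each library was then set against the other 2, to ask which pool set a factor's spread. The labels give D the fewest embryos. The fit, edgeR's quasi-likelihood test on the counts with TMM scaling, leaves 1 residual degree of freedom, and the spread of the lone pool is assumed to equal that of the others. In D no factor passed the adjusted threshold of 0.05, where 0.0% of 15727 genes passed. At an unadjusted p under 0.05 there were 4 of 9 factors, beside 19.4% of all genes. DESeq2 called 688 of 23553 genes and none of the 9 factors. Its calls were too few for this to set the factors apart from other genes. Pou4f1 was higher in D by a log2 ratio of 1.36 ± 0.44 (approximate SE, edgeR adjusted p = 0.21). The others had ratios of 0.07 for Pou4f2, -0.60 for Isl1, -0.84 for Pou4f3, -0.96 for Isl2, -1.64 for Drgx, -2.09 for Hmx1, -2.34 for Tlx2 and -2.39 for Tlx3. The median of the 9 was -0.96 with 7 of 9 lower, against -0.02 and 7945 of 15727 lower over all genes tested.

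A few factors passed under another filter. With no filter on low counts, where 6.51% of 23553 genes were called, Pou4f1 was higher in D (log2 ratio 1.41, edgeR adjusted p = 0.028), and Tlx2 (-2.28, edgeR adjusted p = 0.045) and Tlx3 (-2.33, edgeR adjusted p = 0.031) were lower. None of the 3 factors passed with the filter, with DESeq2, with its size factors or once the trend with GC and length was taken out. These calls set the single library D against B and C, which were not alike. With TMM scaling the log2 ratio of D for Tlx3 was -0.71 to B and -3.10 to C. For Tlx2 it was -1.41 to B and -2.83 to C, and for Pou4f1 1.02 to B and 1.81 to C. The scale matters for these ratios. In TPM the median gene tested stood 0.71 higher in D than in B and C, against -0.02 with TMM scaling. Isl1 therefore had a TPM ratio of 0.11 and a TMM ratio of -0.60, and it lay -0.61 from the median gene in TPM.

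In C 0 of 9 factors passed edgeR's test at an adjusted p of 0.05, where 0.782% of 15727 genes did. DESeq2 called no factor either, and too few of its 23553 genes for this to set the factors apart. At an unadjusted p under 0.05 by edgeR there were 3 of 9 factors, beside 6.91% of all genes. They were Tlx3, with a log2 ratio of 2.75 ± 0.91 (edgeR adjusted p = 0.17), Tlx2 with 1.99 ± 0.93 and Hmx1 with 1.99 ± 0.92 (edgeR adjusted p = 0.62 and 0.61). Drgx followed with 1.26 ± 0.88, and Pou4f1 had -1.39 ± 1.09. In B none of the 9 had even an unadjusted p under 0.05, where 1.11% of genes did, and 0.0% passed after adjustment. All 3 fits use the same libraries, so they are not independent.

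Tlx2, Tlx3 and Hmx1 also stand together in base composition and length. Their longest transcripts hold 67.3, 67.3 and 68.6% GC, within the top 10% of genes tested by GC (57.6 to 78.6%), and their counted lengths are 1514, 1533 and 1559 bases. Genes of that GC band had a median log2 ratio of -1.11 in D, and of 0.69 in C. Those in the same band of 10% by length (1083 to 1736 bases) had a median of -0.89 in D. With the trend of length and GC removed in each library, a step added after seeing the data, the D ratios of these 3 factors were -0.41 for Tlx2, -0.27 for Tlx3 and -0.14 for Hmx1. In C they became 0.18 for Tlx2, 0.83 for Tlx3 and 0.01 for Hmx1. After that step 1.87% of genes passed in C and 0 of 9 factors did, and at an unadjusted p under 0.05 the share was 10.1% of genes and 0 of 9 factors, by edgeR. Isl2, at 60.0% GC, moved from -0.96 to 0.26 in D.

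Pou4f1, Drgx and Isl1 behaved differently under that correction. Pou4f1, at 49.8% GC and 4672 bases, kept a D ratio of 1.00 ± 0.47, where genes in its GC and length bands had medians of -0.10 and 0.11. Without correction its ratio was 1.36, and the medians of those bands were 0.05 and 0.28. Drgx, at 51.2% GC, kept -1.54 ± 0.56 in D (edgeR adjusted p = 0.26) and 1.16 ± 0.68 in C. Isl1, the factor with the lowest GC at 45.7%, went from -0.60 to -1.02 ± 0.44 (edgeR adjusted p = 0.33). With the trend removed 0.134% of genes passed in D and no factor did, and 2 of 9 had an unadjusted p under 0.05 beside 14.1% of all genes.

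**Figure D3:**
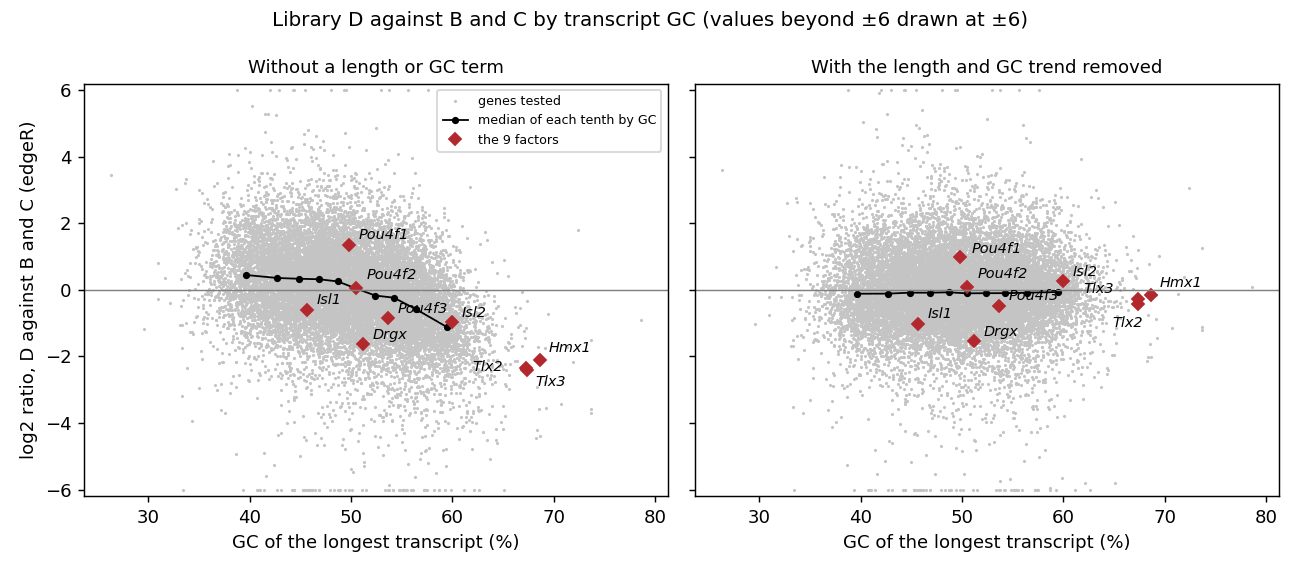
Log2 ratio of library D against B and C from edgeR, against the GC content of the longest transcript in percent, without (left) and with (right) the length and GC trend removed. Grey points are all genes tested, black points the median of each band of 10% by GC and red diamonds the 9 factors. Tlx2, Tlx3 and Hmx1 lie between -2.39 and -2.09 on the left and between -0.41 and -0.14 on the right, whereas Drgx lies at -1.64 and -1.54.

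Summed TPM of cell type markers also differed between the pools. These differences were not tested, and the sums count no cells. The 10 neuron markers, each above 1 TPM throughout, summed to 36536 TPM in pool B, 29002 in pool C and 22819 in pool D. Most of each sum was Tubb3, Stmn2 and Gap43, which alone fell from B to C to D. In TPM Nefl, Nefm and Prph were highest in C. Dcx, Snap25, Elavl3 and Elavl4 were highest in D, with Elavl3 and Elavl4 close to B. With TMM scaling 9 of 10 were lower in D, with a median log2 ratio of -0.98. Among them Snap25 stood at -0.01, and Dcx was higher, at 0.70. The 7 factors that were lower in D had these lower TMM ratios of neuron markers beside them, and any link was not tested. All 9 glia markers were detected, with a summed level of 3054 TPM in pool B, 1515 in pool C and 4793 in pool D. In D most of it was Ednrb at 2138 TPM and Fabp7 at 2017 TPM. With TMM scaling 7 of 9 glia markers were higher in D, and Fabp7 was not, at a log2 ratio of -0.51. Sympathetic genes were detected for 7 of 11 markers, with summed levels of 360 TPM in pool B, 265 in pool C and 135 in pool D. Isl1 is also a sympathetic gene and Hmx1 acts in sympathetic ganglia too, and the part of these cells in the levels of both was not tested.

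Most marker genes of the spinal cord were low. Motor neurons or dorsal horn neurons also express Isl1, Isl2, Tlx3 and Drgx, and their part in the levels of these factors was not tested. None of 13 spinal progenitor and interneuron markers reached 1 TPM in every library, and Lbx1, Atoh1, Ptf1a, Olig2 and Lhx5 had no count in any. Their summed level was 4.24 TPM in pool B, 0.81 in pool C and 4.42 in pool D, most of it Pax3, which neural crest also expresses. Of 6 motor neuron markers 1 was detected, Slc18a3 at 3.52 ± 1.63 TPM, whereas Mnx1 was read 4 times each in B and in C and 0 times in D. The upper limit at 0 counts is 3 counts, which is 0.143 to 0.257 CPM (counts scaled to library size) and covers counting error only. Erythroid genes were detected for 7 of 9 markers, with sums of 2864, 1578 and 408 TPM in B, C and D, mesenchyme genes for 5 of 8, macrophage genes for 3 of 6 and endothelium genes for 0 of 6.

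Few relatives of the factors were found. Of 34 other POU, LIM, Tlx, Hmx and paired-like homeodomain genes, 4 were detected in every library and 26 stayed under 1 TPM in each. Shox2, a paired-like factor of TrkB mechanoreceptors, was highest at 72.7 TPM in pool B, 110 in pool C and 153 in pool D, beside 93.9 to 116 for Pou4f3. With TMM scaling the log2 ratio of Shox2 in D was 0.02. None of the 10 LIM homeodomain relatives was detected. Lhx1, the highest of them, had 22 counts in B and 0 in C and D, and Lhx5, Lhx8 and Lhx9 had none. Tlx1 and Hmx2 had 5 and 4 counts in B and 0 elsewhere, and Hmx3 had none.

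**Figure D4:**
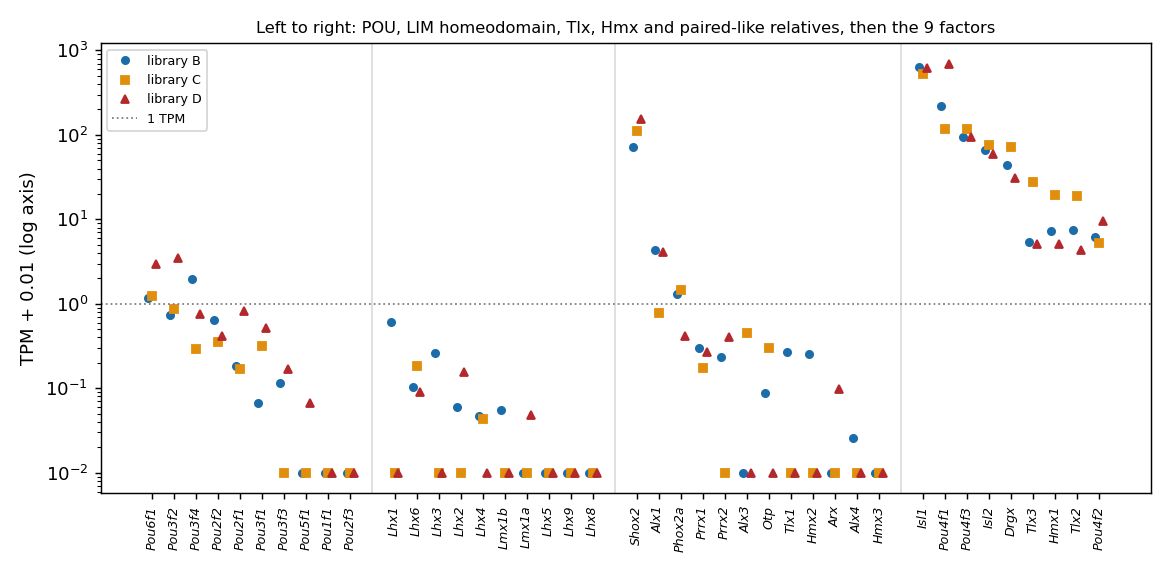
TPM + 0.01 (log axis) in libraries B, C and D for 32 of the 34 POU, LIM homeodomain, and Tlx, Hmx and paired-like relatives, followed by the 9 factors. The dotted line marks 1 TPM, and genes without a count sit at 0.01. All 9 factors lie above 4 TPM in each library, whereas 26 of the 34 relatives stay under 1 TPM.

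The cofactors of the LIM factors were nearly all present. ISL proteins are known to work in complexes held together by LDB proteins, which bind SSBP partners and are opposed by LMO proteins. Of 10 such genes 9 were detected, and Lmo3 was not. Ldb1, the core adaptor, stood at 16.8 TPM in pool B, 13.9 in pool C and 15.7 in pool D, with a TMM log2 ratio of -0.67 in D. Ssbp2 stood at 59.6 ± 8.05 TPM, with a ratio of -0.41. Lmo4 stood at 57.5 TPM in pool B, 101 in pool C and 231 in pool D, and Ssbp3 at 66.3, 43.6 and 183 TPM. Both were highest in D like Pou4f1, but Lmo4 was lowest in B and not in C. Their TMM log2 ratios in D were 0.83 and 1.04. Ssbp4 stood at 3.76 TPM in pool B, 68.7 in pool C and 2.64 in pool D, and Lmo1 at 39.0, 75.7 and 24.2 TPM, both highest in C like Tlx3. Of the 10 cofactor genes 4 were higher in D, with a median TMM log2 ratio of -0.51.

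Early neurogenic genes, which Pou4f1 and Isl1 are known to shut off, were detected for 7 of 10. Neurod1 stood at 85.2 TPM in pool B, 35.1 in pool C and 153 in pool D, in the same order of libraries as Pou4f1. Neurod4 had the same order, with 6.66, 3.29 and 33.5 TPM. The TMM log2 ratios in D were 0.66 for Neurod1 and 2.06 for Neurod4. Nhlh1 and Nhlh2 stood at 19.9 ± 1.60 and 20.8 ± 2.60 TPM, with TMM log2 ratios of -0.80 and -0.41 in D. Hes6 stood at 24.1 TPM in pool B, 243 in pool C and 21.7 in pool D. Neurog2, Neurod2 and Neurod6 stayed under 1 TPM in each library. In D 2 of 7 tested were higher, with a median log2 ratio of -0.64.

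Genes of sensory identity were detected for 12 of 13, and Runx1 stayed between 0.36 and 0.52 TPM. Shox2 led this list too, followed by the neuropeptide gene Gal at 144 TPM in pool B, 101 in pool C and 39.7 in pool D. Avil, an actin-binding protein gene of sensory neurons, stood at 101, 49.4 and 104 TPM and Spp1 at 39.9, 52.5 and 49.6 TPM. Runx3, a factor of proprioceptors, stood at 5.13 ± 1.70 TPM. In D 4 of 13 were higher, with a median log2 ratio of -0.42. Exons of Shox2, Avil, Neurod1, Ldb1, Ssbp2 and Runx1 overlap those of other genes in the deposited coordinates.

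The profile of a factor over 3 pools is shared by many genes. By distance between centred log2 CPM over the 3 libraries, the 5 genes nearest to Isl1 were Cops7a, Cldn9, Slc35c2, Unc13a and Zfp830. Cops7a stood at 95.9 TPM in pool B, 80.1 in pool C and 94.0 in pool D. The 5 nearest to Pou4f1 were Msantd4, Vcp-rs, Irf1, Wsb1 and Gimap9, and Wsb1 stood at 102 TPM in pool B, 54.4 in pool C and 318 in pool D. Of 13119 genes compared, 800 lay within a distance of 0.25 of Isl1 and 279 within that distance of Pou4f1.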

How the data were processed

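Per the labels' protocols, RNA of sorted DRG cells was amplified as cDNA by a SMARTer low-input chemistry, which keeps no strand. The authors deposited, per the file headers, a count, a CPM and an RPKM value for each of 41388 Ensembl identifiers, beside the exons and the length. In the deposited tables CPM is the count over the file total and RPKM that CPM per kilobase. Only the counts were used. Subread, featureCounts 1.4.5 and GRCm38.p2 stand, without roles, in the submitters' processing notes. The sources used here do not give annotation release or strand setting. The deposited totals are 18072199 counts for pool B, 11666241 for pool C and 20966139 for pool D.

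TPM used count and length over all genes. Ratios used log2(TPM + 0.1). Fits used edgeR 4.0.16 (TMM, filterByExpr, Benjamini-Hochberg over all genes tested, threshold 0.05). They were also run on simulated data with less spread between libraries than here and no GC trend. That run cannot show how the fits behave on data like these. Approximate standard errors are the log2 ratio over the root of its F statistic. DESeq2 1.42.0, its size factors, no filter, other limits and pseudocounts, CPM and leaving out each library were the alternatives. The length and GC surface (mgcv 1.9.3, genes with a mean count of 10 or more) and TPM ratios of D were added after seeing the data. GC was that of each gene's longest transcript in GENCODE M21, and symbols were found for 40254 identifiers. Homeoboxes were cut from GENCODE M21 coding sequences.

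The factors and lists were chosen with earlier results of these data known. All 9 factors, the 4 genes with the highest mean TPM of each list and the 5 genes nearest in profile to Isl1 and Pou4f1 were to be named, and any other gene named was chosen after its values were seen. A few genes and sequences are counted but not reported here. The labels do not say how pools were drawn beyond embryos and mothers, so p-values measure the spread between these pools only.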

Additional observations from a re-analysis of the deposited data

How the results depend on the processing

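Of 156 alternatives, 142 kept the direction and the side of the threshold, or a count within 1.5 times. That count ignores the size of a ratio, and ratios between factors could not cross the threshold in this design. With the trend of GC and length removed, Tlx3 in D went from -2.39 to -0.27 and Hmx1 from -2.09 to -0.14. Both were counted as kept. For D, edgeR called 0 genes as reported, 1534 without the filter, 8 on size factors from DESeq2, and 21 after the trend with GC and length was taken out, while DESeq2 itself called 688. For C, taking out that trend raised the 123 calls to 294, and DESeq2 called 1 in B against 0. Isl2 turned to 0.26 in D with the trend removed, and Isl1 to 0.11 as a TPM ratio. Tlx3 over Tlx2 ranged from -0.10 to 0.40 when a library was left out. At 5 TPM, 1 POU relative and 4 early neurogenic genes were detected, against 2 and 7. The cause of these changes was not tested. No paired analysis was possible because the 3 libraries form a single group. With 1 pool against 2, a lone library's biology and its preparation cannot be told apart.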
